A study of Mus musculus with 6 samples.

Results

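The genes that license, unwind and copy DNA in S phase were read from 6 Affymetrix arrays of cultured lacrimal gland myoepithelial cells. The set lists 37 genes by symbol: the MCM helicase, the origin proteins, the polymerases, the sliding clamp with its loader, the enzymes of nucleotide supply, cyclin E with its kinase, and the E2F factors. A gene was read from a probe set that carries its symbol alone, and where there were several such probe sets, from that with the highest mean over the 6 arrays. This gave 35 of the 37 genes, among 22180 genes tested. The probe sets of Rfc4 and Ccne2 carry a second gene symbol each, so these genes were not analysed here.

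The arrays hold total RNA of cells grown for about 2 to 3 weeks from the exorbital glands of female mice, 3 arrays from TSP1 null mice and 3 from wild type C57BL/6J mice, with no treatment in either group. TSP1 is thrombospondin-1, a secreted matrix protein encoded by Thbs1, and the series uses mice without it as a model of dry eye disease. The titles number the arrays as biological replicates, but the labels give no age, no genetic background for the null mice and nothing on whether each array had an animal or a culture of its own. The p-values therefore cover array-to-array spread within these cultures, part of which may be technical. Every value is a log2 signal as the authors deposited it, a difference is TSP1 null minus wild type, and a difference of 1 is 2-fold.

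Before S phase, the origin recognition complex with Cdc6 and Cdt1 loads the ring of Mcm2 to Mcm7 onto origins. Cyclin E with Cdk2 then helps to start the helicase, which is joined by Cdc45 and the GINS complex, and polymerases held by the PCNA clamp copy the strands from a pool of deoxynucleotides made by ribonucleotide reductase and its partner enzymes. Many of these genes are known targets of the E2F factors, transcribed in late G1 and S phase, and their level in a culture is commonly read as a sign of cycling cells. In bulk RNA, fewer cells of a type and less RNA per cell cannot be told apart.

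Thbs1, which encodes TSP1, measured 12.73, 13.03 and 13.00 on the null arrays and 13.51, 13.75 and 13.54 on the wild-type arrays. The difference of -0.68 (SE 0.13, limma adjusted p = 0.25) left it bright in the null cultures. No source used here says where its probes lie relative to the altered part, so it is a weak check of the labels. The smooth muscle actin Acta2, a marker shared by myoepithelial and smooth muscle cells, lay between 13.85 and 14.01 on all 6 arrays and Cnn1 between 11.64 and 12.22. Fibroblast markers were bright too. The mean over their 10 genes was 10.30, 10.91 and 10.38 on the null arrays and 11.08, 10.00 and 10.23 on the wild-type arrays. The identity of the cells was not tested. Of the 6 basal epithelial markers measured, 5 had a higher mean in the null group and Itga6 a lower one (-0.49, SE 0.37). Over all genes, 44.9% had a lower mean. Krt14, Krt17 and Trp63 had every null array above every wild-type array (against 10.1% of all genes). Krt14 measured 6.35, 6.21 and 5.78 in the null group and 4.93, 5.23 and 5.52 in the wild-type group. On the first and second wild-type arrays it lay below the array's median (5.32 and 5.29). Trp63 lay between 4.47 and 4.93, below every array's median (5.25 to 5.32), and Krt5 was not analysed here. Macrophage markers lay above the array's median on every array, except Cd163, which ran from 4.02 to 4.42, below every array's median. The mean over the 20 macrophage genes was 8.90, 9.68 and 7.30 on the null arrays and 9.51, 10.18 and 10.31 on the wild-type arrays. All 20 had a lower mean in the null group (against 44.9% of all genes), though Cd163 differed by only -0.18 (SE 0.13). The list mean was lowest on the third null array. Cd68 ran from 9.66 on that array to 12.99 on the third wild-type array, and Adgre1 from 6.97 on it to 11.05 on the second wild-type array.

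No gene of the set passed the test. With limma, 0 of 35 passed an adjusted p of 0.05, beside 0 of all 22180 genes (0%). The smallest adjusted p of the set was 0.384, of Rrm2. At an unadjusted p under 0.05, 2 of the 35 were lower in the null group, Rrm2 and Pcna, or 5.71%, against 4.27% of all genes in that direction. In the other direction there were 0, against 6.28% of all genes. The share of lower genes is near that of all genes. An ordinary linear model also gave 0 calls and found 0 of the 35 at an unadjusted p under 0.05.

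The direction was less evenly spread. Of the 35 genes, 30 had a lower mean in the null group and 5 a higher mean (Mcm2, Rfc3, Fen1, Rrm1 and Dut), whereas 44.9% of all genes had a lower mean. The median difference of the set was -0.19, or 1.14-fold lower, and over all genes it was 0.02. Single differences ran from -0.67 (Rrm2) to 0.21 (Fen1). Only Rrm2 and Pcna had all null arrays below all wild-type arrays (5.71%, against 5.75% of all genes), and in 0 genes were all null arrays above (against 10.1% of all genes). The 95% interval of the difference included 0 for 33 of the 35, and for 26 it lay within a 2-fold change either way. The third wild-type array decided the sign of the median, which was 0.0061 without it. Without the second null array the median was -0.045, and the count at an unadjusted p under 0.05 was 0. It was 4 without the first null array (11.4%, against 2.73% of all genes lower at that p in the same fit). It was 9 without the second wild-type array (25.7%, against 4.03%), and in both fits all of them were lower in the null group. Without the third wild-type array it was 2, with 1 gene lower (2.86%, against 3.07% of all genes) and 1 higher (against 5.14% of all genes). Leaving out 1 array moved the difference by over 1.5 times for 33 of the 35 genes, all but Rrm2 and Tk1, and turned its sign for 19.

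**Figure D1:**
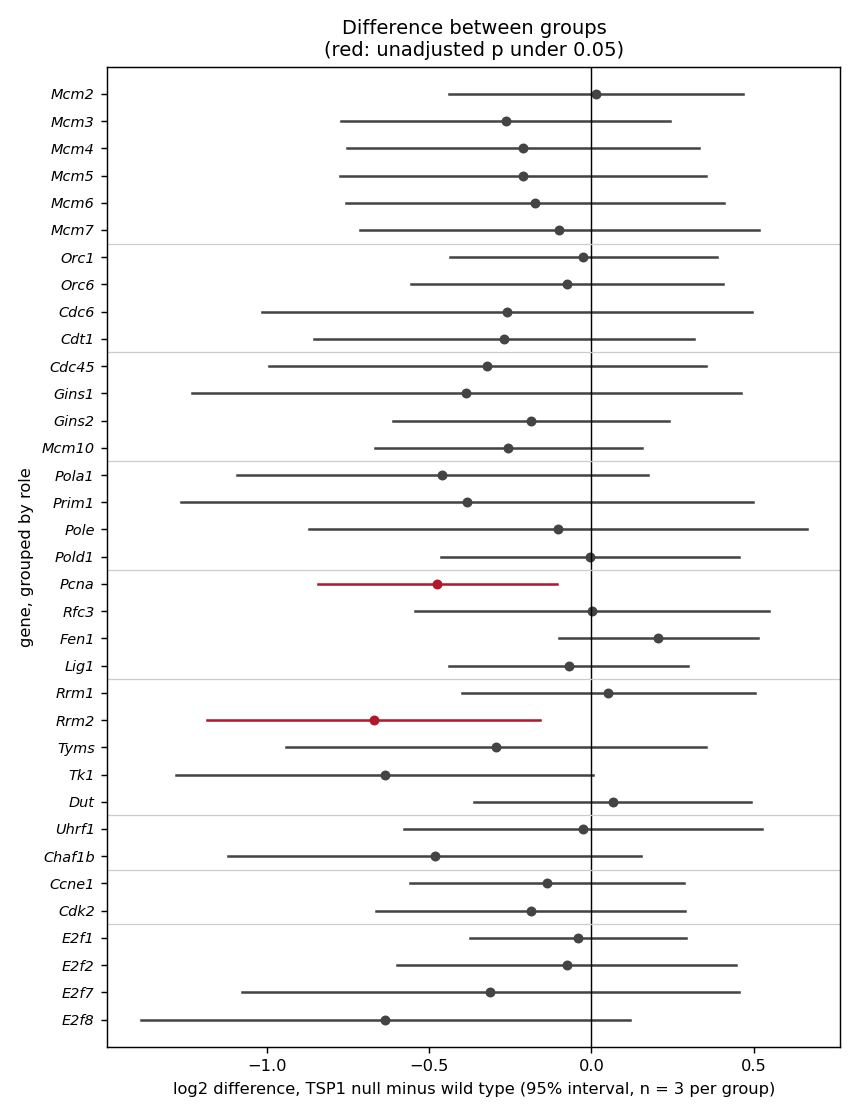
Difference in log2 signal, TSP1 null minus wild type, for the 35 measured genes in order of their roles. Points are limma differences and lines their 95% intervals (n = 3 arrays per group). Rrm2 and Pcna, in red, have intervals below 0, and the other 33 intervals include 0.

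Within both groups, single arrays stood apart across most of the set. The second null array had the lowest signal of all 6 for 25 of the 35 genes (71.4%, against 13.8% of all genes), and the third wild-type array the highest for 27 (77.1%, against 14.6% of all genes). For 20 genes both held. Around the mean over 6 arrays, the mean of the set was 0.06, -0.41 and 0.03 for null arrays 1 to 3 and 0.09, -0.24 and 0.46 for wild-type arrays 1 to 3. The groups therefore overlapped: the second wild-type array lay below the first and the third null array, for 28 of the 35 genes taken singly. Spread within a group was large for these genes. Their median SD was 0.31 on the null arrays and 0.38 on the wild-type arrays, against 0.15 and 0.17 over all genes. The median SE of a difference was 0.23 against 0.14. This comparison was not matched for signal level, as 33 of the 35 genes had a mean above the array median. In a wider list of replication genes, given below, the median SDs were 0.23 and 0.24.

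**Figure D2:**
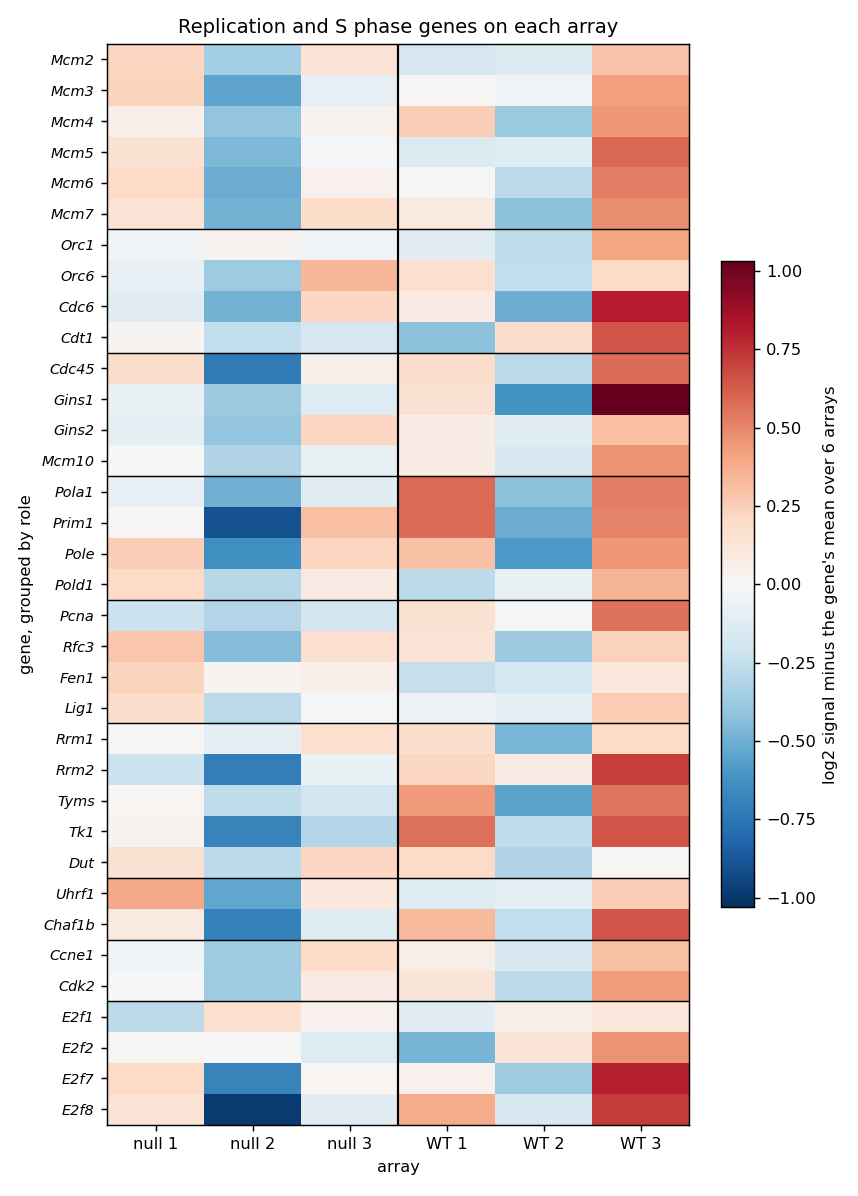
Log2 signal of each gene on each array, minus that gene's mean over the 6 arrays, with null arrays left and wild-type (WT) arrays right of the vertical line. Horizontal lines part the role classes. The column of null 2 is lowest for 25 genes and that of WT 3 highest for 27.

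The promoters of these genes are shown because the genes varied together from array to array and many are textbook E2F targets. Promoter sequence (250 bases before to 50 after the annotated start, RefSeq, GRCm38.p6) was found for 32 of the 37 listed genes. Mcm4, Gins1, Gins2, Pole and Ccne2 had no entry. The E2F words searched, on both strands, were TTTCCCGC, TTTCGCGC, TTTGCCGC and TTTGGCGC. At least 1 word was found in 15 of the 32 genes (46.9%), against 2.6% of all 27025 genes in the table. A gene with several starts was counted once. By role, the words were found in 4 of 5 MCM genes and 3 of 4 licensing genes. They were found in 0 of 5 nucleotide supply genes and in 0 of the 2 helicase activation genes with an entry. Only exact words within this stretch were sought, so a gene without one was not shown to lack an E2F site. The windows around 10 of the 21 words, those of the MCM and licensing genes and Cdk2, let the words be compared in their surroundings. The word is in capitals and each window is read 5′ to 3′ along the gene's own strand, so that a word of the other strand appears as its reverse complement.
Mcm3, chr1:20820276-20820303, minus strand: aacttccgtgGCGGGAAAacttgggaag
Mcm5, chr8:75109346-75109373, plus strand: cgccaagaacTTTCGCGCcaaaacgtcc
Mcm6, chr1:128359798-128359825, minus strand: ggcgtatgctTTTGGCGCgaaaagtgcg
Mcm6, chr1:128359735-128359762, minus strand: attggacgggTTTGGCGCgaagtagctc
Mcm7, chr5:138172031-138172058, minus strand: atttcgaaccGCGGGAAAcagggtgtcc
Mcm7, chr5:138171850-138171877, minus strand: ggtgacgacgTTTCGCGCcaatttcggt
Orc1, chr4:108579417-108579444, plus strand: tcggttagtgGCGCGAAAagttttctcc
Cdc6, chr11:98908003-98908030, plus strand: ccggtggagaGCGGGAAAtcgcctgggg
Cdt1, chr8:122568037-122568064, plus strand: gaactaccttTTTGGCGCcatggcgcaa
Cdk2, chr10:128705174-128705201, minus strand: accaggaactGCGGGAAAgttgtgcagc

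In Mcm5 and Mcm6 a further word overlaps the first one shown, Mcm3 has a further word downstream, and in Mcm7 the word TTTCGCGC shares bases with a CCAAT box. The CCAAT box, bound by NF-Y, was found in 20 of the 32 genes (62.5%, against 41.1% of all genes). The CHR word, which marks many genes of G2 and mitosis and was searched on both strands as TTTGAA and as TTCGAA, was found in 7 of 32 (21.9%, against 21.7% of all genes). In a list of mitosis genes a CCAAT box was found in 12 of 13 (92.3%), the CHR word in 11 of 13 (84.6%) and an E2F word in 1 of 13 (7.69%), so that CCAAT was the most frequent of the 3 in both lists. A match is a run of letters and not a site shown to be bound. The second null array was the lowest for 11 of the 15 measured genes with an E2F word and for 11 of the 16 without, and their median differences were -0.17 and -0.27. It was the lowest for 17 of the 20 with a CCAAT box and 5 of the 11 without. For the CHR word the counts were 5 of 7 and 17 of 24. These splits were not tested. Of the genes with the smallest p in their role class, the whole promoters of the 5 of smallest p follow, with E2F, CCAAT and CHR words in capitals. A CCAAT box of the opposite strand reads as ATTGG, and a CHR word of that strand as TTCAAA. Only Pola1 holds an E2F word, and Chaf1b holds none of the 3 kinds.
Rrm2, chr12:24708004-24708303, plus strand: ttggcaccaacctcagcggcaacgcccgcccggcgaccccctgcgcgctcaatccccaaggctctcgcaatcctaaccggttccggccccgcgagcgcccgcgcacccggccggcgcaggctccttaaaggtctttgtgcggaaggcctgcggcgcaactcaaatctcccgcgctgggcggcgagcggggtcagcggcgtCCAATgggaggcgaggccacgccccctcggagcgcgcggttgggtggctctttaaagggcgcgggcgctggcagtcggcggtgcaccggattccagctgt
Pcna, chr2:132253131-132253430, minus strand: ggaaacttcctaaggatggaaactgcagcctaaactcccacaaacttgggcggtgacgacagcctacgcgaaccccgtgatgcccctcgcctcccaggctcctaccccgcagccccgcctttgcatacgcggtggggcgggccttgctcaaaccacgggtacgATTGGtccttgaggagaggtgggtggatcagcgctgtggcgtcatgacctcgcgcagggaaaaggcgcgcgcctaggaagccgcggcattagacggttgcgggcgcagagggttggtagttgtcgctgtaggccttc
E2f8, chr7:48881547-48881846, minus strand: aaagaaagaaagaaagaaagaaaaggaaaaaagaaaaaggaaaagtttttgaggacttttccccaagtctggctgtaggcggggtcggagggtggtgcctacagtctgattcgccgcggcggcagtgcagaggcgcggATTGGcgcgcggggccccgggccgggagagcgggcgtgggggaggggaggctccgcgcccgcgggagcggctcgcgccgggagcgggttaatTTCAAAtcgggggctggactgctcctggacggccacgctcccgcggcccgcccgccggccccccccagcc
Chaf1b, chr16:93883651-93883950, plus strand: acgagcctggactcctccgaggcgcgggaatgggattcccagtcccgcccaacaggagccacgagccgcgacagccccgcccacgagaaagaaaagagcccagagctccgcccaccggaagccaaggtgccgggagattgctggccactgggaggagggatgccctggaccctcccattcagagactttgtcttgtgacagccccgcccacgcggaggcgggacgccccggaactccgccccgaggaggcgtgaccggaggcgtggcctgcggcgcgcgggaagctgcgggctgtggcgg
Pola1, chrX:93632106-93632405, minus strand: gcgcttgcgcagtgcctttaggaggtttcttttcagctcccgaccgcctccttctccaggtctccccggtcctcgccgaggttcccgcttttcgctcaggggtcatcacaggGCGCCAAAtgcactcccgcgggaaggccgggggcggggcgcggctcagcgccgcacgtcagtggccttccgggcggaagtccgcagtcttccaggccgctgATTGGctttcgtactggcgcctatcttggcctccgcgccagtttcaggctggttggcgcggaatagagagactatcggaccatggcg

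The helicase core is the ring of Mcm2, Mcm3, Mcm4, Mcm5, Mcm6 and Mcm7, present in equal copies in the protein. All 6 genes were lowest on the second null array and highest on the third wild-type array. Mcm3, the member of smallest p here, measured 7.89, 7.11 and 7.58 on the null arrays and 7.67, 7.62 and 8.08 on the wild-type arrays. The groups overlapped, with the first null array above 2 of the wild-type arrays, and the difference was -0.26 (SE 0.22, limma adjusted p = 0.721). Mcm4 averaged 8.69 ± 0.26 in the null and 8.90 ± 0.43 in the wild-type group (SD, n = 3 in each), a difference of -0.21 (SE 0.23). Mcm5 averaged 7.46 ± 0.32 in the null and 7.67 ± 0.42 in the wild-type group, a difference of -0.21 (SE 0.24). Mcm6 averaged 8.12 ± 0.38 in the null and 8.29 ± 0.40 in the wild-type group, a difference of -0.17 (SE 0.25). For each of these 3 genes the group means differed by less than the SD of either group. Mcm7 averaged 7.48 ± 0.38 in the null and 7.58 ± 0.45 in the wild-type group, a difference of -0.10 (SE 0.26). Mcm2 was the exception in direction, at 0.02 (SE 0.19), and is given in full after its values were seen. Its null arrays measured 7.62, 7.05 and 7.55 and its wild-type arrays 7.23, 7.26 and 7.69. Its 95% interval, -0.44 to 0.47, allows a change in either direction.

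Origin licensing needs Orc1 and Orc6 of the origin recognition complex, the loader Cdc6 and its partner Cdt1. All 4 means were lower in the null group, by 0.02 to 0.27, and all intervals included 0. Cdt1 had the smallest p, with 6.68, 6.40 and 6.49 on the null arrays against 6.23, 6.84 and 7.31 on the wild-type arrays. Its wild-type values straddled the null values, the first being the lowest of all 6 (difference -0.27, SE 0.25). The difference was -0.011 without the third wild-type array and -0.55 without the first. Cdc6 averaged 6.12 ± 0.35 in the null and 6.38 ± 0.65 in the wild-type group, a difference of -0.26 (SE 0.32). Orc6 averaged 8.59 ± 0.35 in the null and 8.67 ± 0.26 in the wild-type group, a difference of -0.08 (SE 0.21). Orc1 averaged 5.19 ± 0.039 in the null and 5.21 ± 0.35 in the wild-type group, a difference of -0.02 (SE 0.18). The sign of Orc1 turned under quantile normalization and under median centring, to 0.013 in each. Orc1 and Fen1 were the 2 genes whose mean over the 6 arrays lay below the array median.

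Helicase activation joins Cdc45 and the GINS subunits Gins1 and Gins2 to the ring, with Mcm10 as a further start factor. Here too all 4 means were lower in the null group. Gins1, with the largest difference, measured 5.25, 4.94 and 5.19 on the null arrays and 5.48, 4.71 and 6.35 on the wild-type arrays. Its wild-type arrays held both the highest and the lowest value (difference -0.39, SE 0.36), and without the third wild-type array the difference was 0.034. Mcm10, with the smallest p, measured 6.40, 6.08 and 6.32 on the null arrays and 6.47, 6.24 and 6.86 on the wild-type arrays. Only the second wild-type array fell within the null range (difference -0.26, SE 0.18, limma adjusted p = 0.655). Cdc45 averaged 6.22 ± 0.50 in the null and 6.54 ± 0.43 in the wild-type group, a difference of -0.32 (SE 0.29). Leaving out the second null array gave -0.037, and leaving out the second wild-type array -0.54. Gins2 averaged 7.81 ± 0.31 in the null and 7.99 ± 0.21 in the wild-type group, a difference of -0.19 (SE 0.18).

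Pola1 is the catalytic subunit of polymerase alpha, which starts each strand together with the primase Prim1. Pola1 measured 6.98, 6.56 and 6.95 on the null arrays and 7.64, 6.64 and 7.59 on the wild-type arrays. The first and the third wild-type array stood above all null arrays and the second lay among them (difference -0.46, SE 0.27, limma adjusted p = 0.598). Prim1 averaged 7.31 ± 0.63 in the null and 7.70 ± 0.61 in the wild-type group, a difference of -0.38 (SE 0.38). Pole, the leading-strand polymerase gene, averaged 6.71 ± 0.50 in the null and 6.81 ± 0.56 in the wild-type group, a difference of -0.10 (SE 0.33). Pold1, of the lagging-strand polymerase, averaged 6.65 ± 0.26 in the null and 6.65 ± 0.32 in the wild-type group, a difference of -0.0035 (SE 0.20). Pold1 turned sign under quantile normalization (0.029) and median centring (0.034). Pole was also read by a dimmer probe set, at -0.11.

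Pcna, the sliding clamp that tethers polymerases to DNA, measured 9.83, 9.76 and 9.87 on the null arrays and 10.22, 10.04 and 10.62 on the wild-type arrays. Every null array was below every wild-type array, and the difference was -0.47 (SE 0.16, 1.39-fold lower, 95% interval -0.84 to -0.11, limma adjusted p = 0.387). Without the third wild-type array it was -0.31. Rfc3, a subunit of the clamp loader, averaged 6.61 ± 0.39 in the null and 6.61 ± 0.33 in the wild-type group, a difference of 0.00073 (SE 0.23). Lig1, the DNA ligase of replication, differed by -0.07 (SE 0.16) around a mean of 6.96 over the 6 arrays. Fen1, the nuclease that trims Okazaki fragments, measured 5.39, 5.20 and 5.22 on the null arrays and 4.93, 4.98 and 5.27 on the wild-type arrays. Its difference of 0.21 (SE 0.13) was not shared by its other probe set, at -0.17 (SE 0.19), and the average of both gave 0.020.

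Among nucleotide supply genes, Rrm2, the regulated small subunit of ribonucleotide reductase, had the largest difference of the whole set. It measured 8.21, 7.72 and 8.36 on the null arrays and 8.65, 8.51 and 9.15 on the wild-type arrays. The groups were apart, most closely between the third null and the second wild-type array (difference -0.67, SE 0.22, 1.59-fold lower, 95% interval -1.18 to -0.16, limma adjusted p = 0.384). A dimmer Rrm2 probe set, with a mean of 4.32, differed by 0.14 (SE 0.17), so that averaging both left -0.27. Rrm1, the large subunit, measured 10.52, 10.42 and 10.67 on the null arrays and 10.69, 10.04 and 10.72 on the wild-type arrays. Its groups overlapped fully, with a difference of 0.05 (SE 0.19).

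Tk1 and Tyms both make thymidine monophosphate, Tk1 by salvage and Tyms by synthesis. Tk1, described in full after its values were seen, measured 7.86, 7.13 and 7.52 on the null arrays and 8.39, 7.57 and 8.47 on the wild-type arrays. Only the second wild-type array lay within the null range, and the difference was -0.64 (SE 0.28, limma adjusted p = 0.476). Tyms averaged 7.59 ± 0.15 in the null and 7.88 ± 0.61 in the wild-type group, a difference of -0.29 (SE 0.28). Dut, which removes dUTP from the pool, averaged 8.49 ± 0.27 in the null and 8.43 ± 0.26 in the wild-type group, a difference of 0.07 (SE 0.18). Its second probe set differed by 0.05.

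Chromatin copying was represented by Chaf1b, a subunit of the histone chaperone CAF-1, and Uhrf1, which carries DNA methylation to the new strand. Chaf1b measured 7.91, 7.13 and 7.69 on the null arrays and 8.15, 7.56 and 8.47 on the wild-type arrays. The second array was the lowest in each group, and the groups overlapped (difference -0.48, SE 0.27, limma adjusted p = 0.58). Uhrf1 averaged 6.73 ± 0.47 in the null and 6.76 ± 0.21 in the wild-type group, a difference of -0.03 (SE 0.24). Median centring turned it to 0.011.

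Cyclin E drives entry into S phase with the kinase Cdk2. Cdk2 measured 8.63, 8.26 and 8.71 on the null arrays and 8.76, 8.35 and 9.06 on the wild-type arrays, again lowest on the second array of each group (difference -0.19, SE 0.20). Ccne1, which encodes a cyclin E, averaged 7.58 ± 0.29 in the null and 7.72 ± 0.23 in the wild-type group, a difference of -0.14 (SE 0.18).

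The E2F factors include repressors and activators. E2f7 and E2f8 are repressors made in S phase and are E2F targets themselves, whereas E2f1 and E2f2 are activators. E2f8 had the widest range over the 6 arrays of any gene in the set, 1.71, with 7.38, 6.25 and 7.12 on the null arrays and 7.62, 7.08 and 7.96 on the wild-type arrays. Its second wild-type array fell within the null range (difference -0.63, SE 0.32, limma adjusted p = 0.542). Without the second null array the difference was -0.30. E2f7 had the same lowest and highest arrays. E2f7 averaged 6.24 ± 0.47 in the null and 6.55 ± 0.59 in the wild-type group, a difference of -0.31 (SE 0.33). E2f1, added after its values were seen, had the narrowest range of the set, 0.43, with 7.57, 8.01 and 7.88 on the null arrays and 7.73, 7.90 and 7.95 on the wild-type arrays. It was the only gene of the 35 with its highest value on the second null array, and it differed by -0.04 (SE 0.14). E2f2 averaged 5.58 ± 0.080 in the null and 5.65 ± 0.48 in the wild-type group, a difference of -0.08 (SE 0.22).

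**Figure D3:**
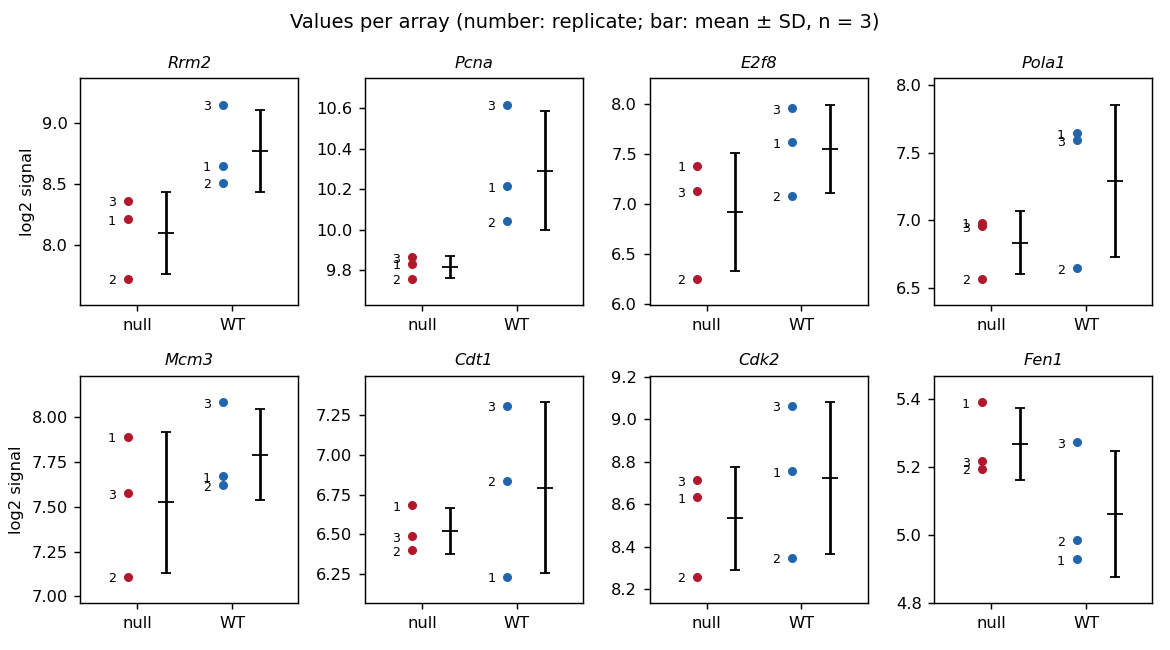
Log2 signal per array for 8 genes, with the replicate number beside each point and the group mean ± SD (n = 3) as a bar. Axes differ between panels and do not start at 0. The groups are apart for Rrm2 and Pcna and overlap for the other 6 genes.

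The role classes shared the low second null array and the high signal of the third wild-type array, and differed more gradually on the first wild-type array. There the class mean, around the mean over 6 arrays, was 0.32 for nucleotide supply, 0.30 for polymerases and primase, 0.12 for helicase activation, 0.11 for chromatin copying and 0.09 for cyclin E and its kinase. It was 0.0073 for the MCM core, -0.00032 for the clamp class, -0.04 for E2F factors and -0.07 for origin licensing. The lowest class mean was on the second null array in all 9 classes, from -0.62 for chromatin copying to -0.25 for the clamp class. The highest was on the third wild-type array in all 9, from 0.29 for the clamp class to 0.60 for helicase activation. The classes were not tested against each other.

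**Figure D4:**
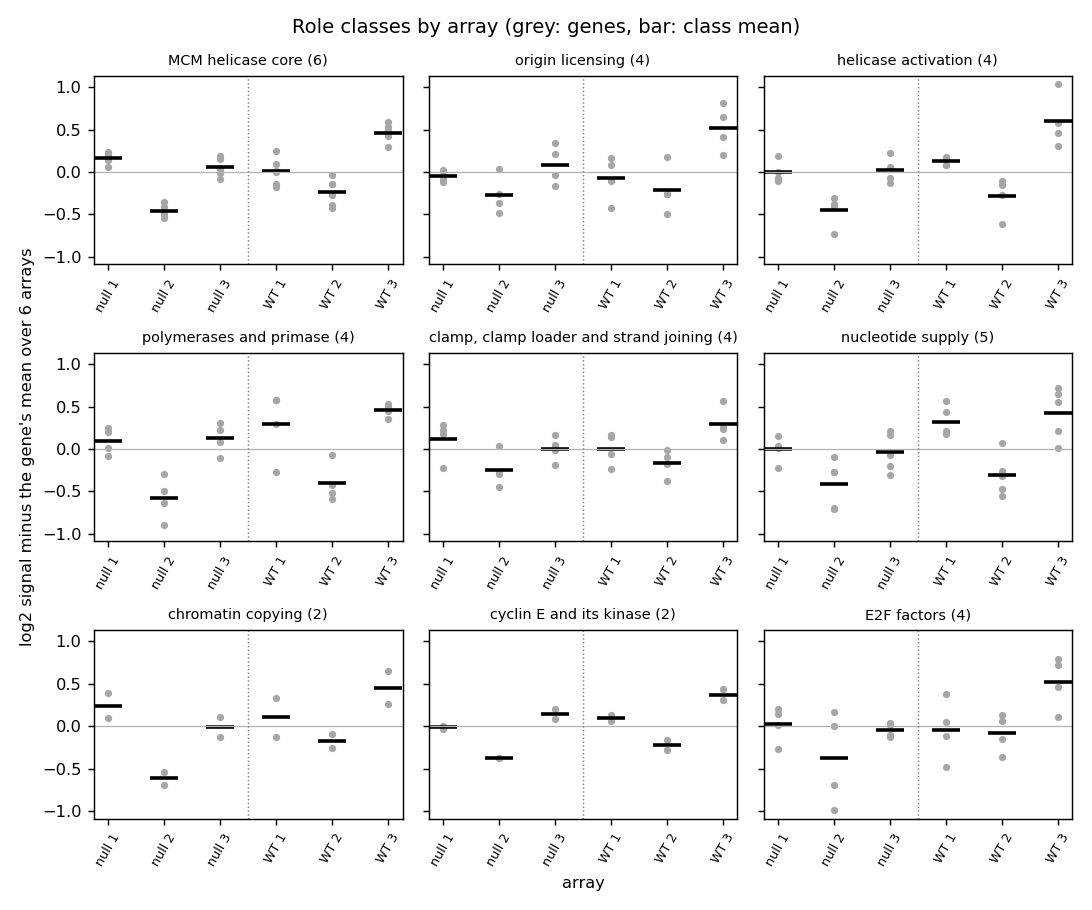
Log2 signal minus the gene's mean over 6 arrays, for the 9 role classes (number of genes in brackets). Grey points are genes and black bars class means. Every class mean is lowest on null 2 and highest on WT 3.

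Of a wider list of 81 replication genes outside the set (other subunits, checkpoint, chromatin and G1 control genes), 78 were measured and 0 passed with limma. Their means were lower in the null group for 55 (70.5%, against 44.9% of all genes) and higher for 23, with a median difference of -0.14. At an unadjusted p under 0.05, 4 of the 78 were lower (5.13%, against 4.27% of all genes) and 1 was higher (against 6.28% of all genes). The genes of smallest p on the lower side were Dna2, a nuclease and helicase of flap processing (-0.46, SE 0.15), Skp2, a ubiquitin ligase subunit that targets the inhibitor p27 (-0.49, SE 0.17), and Atad2, a bromodomain ATPase (-0.81, SE 0.28). Atad2 measured 8.53, 8.48 and 8.57 on the null arrays and 9.80, 8.63 and 9.58 on the wild-type arrays, so all null arrays were lower, with the second wild-type array close to them. On the higher side was Cad, of pyrimidine synthesis, with 7.65, 7.22 and 7.51 on the null arrays and 6.71, 6.91 and 7.12 on the wild-type arrays. Its groups were apart in the direction opposite to Rrm2 (0.54, SE 0.16, limma adjusted p = 0.347). Pold4, a small subunit of polymerase delta, and the D-type cyclin Ccnd2 followed at 0.33 (SE 0.19) and 0.24 (SE 0.14).

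Mitosis genes showed the array pattern in larger form. Of 15 measured, 14 had a lower mean in the null group (93.3%, against 44.9% of all genes), with a median difference of -0.55. On the second null array 14 were lowest (93.3%, against 13.8% of all genes). These genes varied together from array to array, so the counts are not independent. The list mean was 0.09, -0.85 and -0.04 in the null group and 0.59, -0.44 and 0.65 in the wild-type group around its mean over 6 arrays. Unlike the replication set, it was about as high on the first wild-type array as on the third. Mki67, the Ki-67 antigen of cycling cells, measured 9.79, 9.37 and 9.60 against 11.06, 9.90 and 10.91 (difference -1.03, SE 0.29, limma adjusted p = 0.338), and the spindle checkpoint kinase Bub1 differed by -1.05 (SE 0.34). Of 7 cell cycle inhibitors, 3 had higher and 4 lower means in the null group, with a median of -0.01. Those of smallest p were Cdkn1b, which encodes p27 (0.58, SE 0.40), and Cdkn2a, of the INK4a and ARF proteins (0.34, SE 0.33).

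Markers of other cell types ordered the arrays differently. Around the mean over 6 arrays, macrophage markers had means of -0.42, 0.37 and -2.01 in the null group and 0.19, 0.87 and 1.00 in the wild-type group. The second null array, lowest for the replication set, was thus the highest null array for macrophage markers, while the third wild-type array was highest for both. The mean of 10 fibroblast markers was highest on the first wild-type (0.60) and the second null array (0.43), and lowest on the second wild-type array (-0.48), but its genes did not follow one order. Lum and Dpt, which were high on the first wild-type array (9.76 and 9.94), weighed most in that mean, whereas Col1a2 and Pdgfrb were lowest there. Col1a1, Col1a2, Col3a1 and Pdgfrb were the 4 of 10 fibroblast markers higher in the null group at an unadjusted p under 0.05 (against 6.28% of all genes). They had every null array above every wild-type array (against 10.1% of all genes). Going the other way, 4 of the 10 had a lower mean in the null group: Dcn (-0.55), Lum (-1.05), Thy1 (-0.15) and Dpt (-0.40). These fibroblast genes were named after their values were seen. The mean of 8 contractile markers was highest on the second null array (0.34) and between -0.10 and -0.04 on the other 5. Taken singly, 4 of the 8 were highest on that array, and Actg2 was lowest on it. With the macrophage mean as a term in the limma fit, the median difference of the set was -0.38. In that fit 3 of the 35 were lower at an unadjusted p under 0.05 (8.57%, against 2.5% of all genes). All 20 macrophage markers had a lower mean in the null group, so with 6 arrays this term is confounded with genotype. No conclusion was drawn from the shift in the median. Under each of the 18 alternative settings and subsets of arrays, the macrophage term included, 0 members passed the adjusted p of 0.05. The part of cell composition in the differences was not tested.

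**Figure D5:**
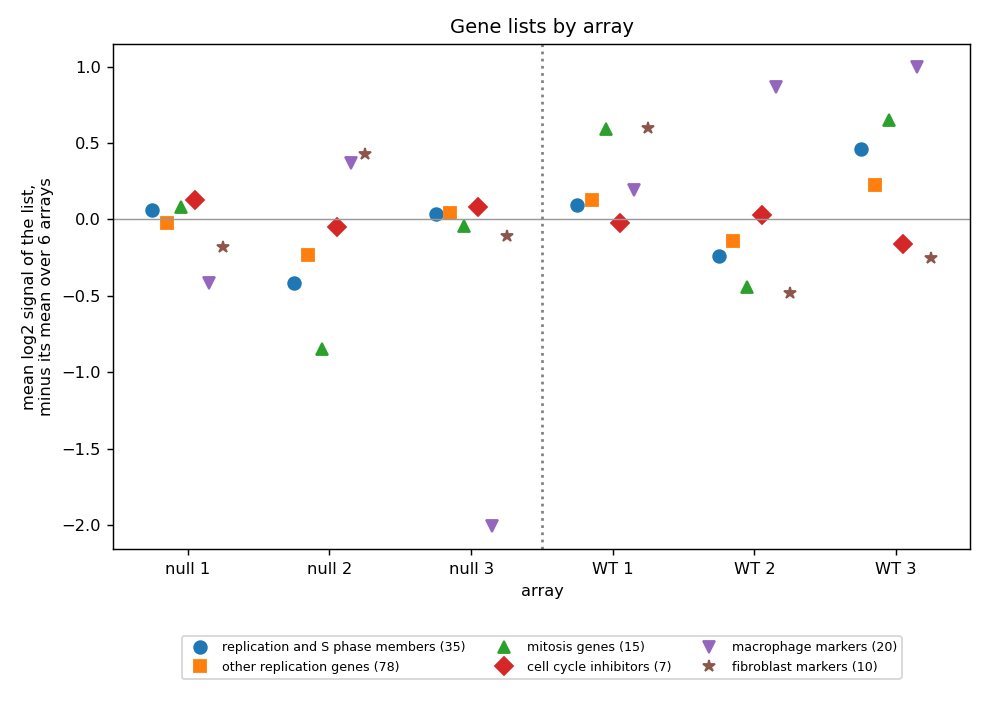
Mean log2 signal of 6 gene lists on each array, minus the list's mean over the 6 arrays (number of genes in brackets; WT, wild type). The replication set and the mitosis genes are lowest on null 2, at -0.41 and -0.85, whereas macrophage markers are lowest on null 3, at -2.01.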

How the data were processed

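Total RNA (150 ng per array, biotin-labelled) of 6 samples was hybridised to Affymetrix Mouse Gene 2.0 ST arrays. Groups and replicate numbers come from the sample titles, which spell the null group TSP1-1. The values for 41345 probe sets are on a log2 scale as deposited by the authors, judged by their range (array medians 5.25 to 5.32), and Partek and RMA are named per the submitters' processing notes, with no version, setting or genome build. RMA is known to compress differences of dim probe sets. No filter on signal was used.

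The platform table names 23521 probe sets with 1 symbol, 1814 with several and 16010 with none. The 22180 genes with 1 symbol, at their brightest probe set, were compared with limma 3.58.1 in R 4.3.3 (lmFit and eBayes, default prior, two-sided, all 6 arrays, no covariates), adjusted by Benjamini-Hochberg over the 22180 genes, and an adjusted p of 0.05 was the threshold. Intervals are 95%. The procedure was tested on simulated data. Precision is limited by the number of arrays. Correlations between arrays ran from 0.978 to 0.988, so none repeated another.

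The members, the lists and the rules were chosen with earlier results of these data known. All 35 measured genes are named. Values on every array are given for the genes of smallest p and of largest difference in each role class, for those with the highest and lowest mean (Rrm1 and Fen1), and for Mcm2, Tk1 and E2f1, added after their values were seen. Of the wider list the 3 genes of smallest p per direction, of the mitosis and inhibitor lists the 2 of smallest p, and Mki67 are named. Markers of acinar (10 genes), endothelial (8) and lymphocyte (7 measured) cells had median differences of -0.04, -0.27 and -0.03, and basal epithelial markers (6) 0.28. Promoters are RefSeq sequences matched by symbol. Same-numbered arrays of both groups deviated from their group means with correlations of -0.14, 0.18 and -0.16, so the numbers were not taken to pair them.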

Additional observations from a re-analysis of the deposited data

How the results depend on the processing

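Under all 18 alternatives 0 genes of the set passed the limma test, and the differences of Rrm2 and Pcna stayed below 0. With dim genes left out, 33 of the 35 were tested, without Orc1 and Fen1. The count at an unadjusted p under 0.05 was 1 with probe sets of a gene averaged, 0 with an ordinary linear model and 7 with the replicate number as a block, all lower in the null group. These are 2.86%, 0% and 20.0%, against 4.31%, 2.67% and 4.52% of all genes lower at that p in the same fits. With every probe set tested, 2 of the 41345 probe sets passed, but no gene at its brightest probe set did (smallest limma adjusted p 0.17). Over all genes, 365 passed without null array 2 and wild-type array 1. The replicate block changed no call, and not every array correlated best with its own number. Leaving out 1 array at a time, the genes called ran from 0 to 34 (34 without null array 2), the count at an unadjusted p under 0.05 from 0 to 9, and the median difference from -0.35 to 0.0061. Without null array 2 and wild-type array 1 together, the differences that turned sign were Ccne1 0.0085, Lig1 0.0017, Mcm4 0.015, Mcm7 0.14, Orc6 0.15, Pold1 0.0063, Pole 0.31, Prim1 0.16, Uhrf1 0.17 and Cdkn2a -0.073. With the macrophage mean in the fit, the differences that turned sign were Dut -0.22, E2f1 0.020, E2f2 0.16, Mcm2 -0.13, Orc1 0.061, Rfc3 -0.28 and Rrm1 -0.12. With array weights, the differences that turned sign were Mcm2 -0.031. Without null array 3 and wild-type array 1 together, the differences that turned sign were Mcm2 -0.14 and Rfc3 -0.012. After quantile normalization, the differences that turned sign were Orc1 0.013 and Pold1 0.029. After median centring of each array, the differences that turned sign were Orc1 0.013, Pold1 0.034 and Uhrf1 0.011. Leaving out 1 array, differences that turned sign ran as follows: Ccne1 -0.27 to 0.014, Cdc6 -0.58 to 0.077, Dut -0.075 to 0.22, E2f1 -0.13 to 0.082, E2f2 -0.34 to 0.14, E2f7 -0.57 to 0.0061, Gins1 -0.79 to 0.034, Lig1 -0.18 to 0.050, Mcm2 -0.092 to 0.19, Mcm5 -0.34 to 0.033, Mcm6 -0.35 to 0.045, Mcm7 -0.33 to 0.12, Orc1 -0.16 to 0.17, Orc6 -0.26 to 0.088, Pold1 -0.14 to 0.17, Pole -0.42 to 0.19, Rfc3 -0.19 to 0.22, Rrm1 -0.17 to 0.17, Uhrf1 -0.23 to 0.24. A further 14 genes kept their sign but moved by over 1.5 times when 1 array was left out: Cdc45 -0.54 to -0.037, Cdk2 -0.37 to -0.017, Cdt1 -0.55 to -0.011, Chaf1b -0.73 to -0.26, E2f8 -0.87 to -0.30, Fen1 0.14 to 0.31, Gins2 -0.34 to -0.034, Mcm10 -0.40 to -0.088, Mcm3 -0.45 to -0.057, Mcm4 -0.46 to -0.040, Pcna -0.60 to -0.31, Pola1 -0.78 to -0.28, Prim1 -0.74 to -0.030 and Tyms -0.64 to -0.092. The cause of these changes was not tested. Quantile normalization and median centring moved the median of all genes to 0.033 and 0.060, with 28 and 27 of 35 genes lower. With 3 arrays per group and a median SE of 0.23, small differences were not detectable.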
